A study of Mus musculus with 2 samples.

Results

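The 9 genes described here are Nkx homeobox genes: Nkx2-1, Nkx2-2, Nkx2-3, Nkx2-5, Nkx2-6, Nkx2-9, Nkx3-2, Nkx6-1 and Nkx6-2. They were picked by name, and each was found by its Ensembl gene identifier among the 37681 identifiers of the deposited files. The samples were whole mouse embryos from crosses of the strains CBA/Ca and C57Bl/10, taken at 10.5 days post coitum without treatment, and total RNA was sequenced in 2 replicates. There was 1 group only, so the data give levels in intact embryos and no contrast between conditions. The sources do not say how many embryos went into a replicate or whether the replicates came from separate litters. A locus here means 1 gene, or overlapping genes with a shared entry in the files. Levels are in RPKM, which scales reads by transcript length and library depth, and are given for replicate 1 and then for replicate 2. In bulk RNA of this kind, fewer cells of a type and less RNA per cell cannot be told apart.

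Nkx proteins are transcription factors that bind DNA through a homeodomain, and most of them act early in the choice of an organ or cell type. Nkx2-2, Nkx2-9, Nkx6-1 and Nkx6-2 are switched on by Sonic hedgehog in the ventral neural tube, where they divide progenitors into domains by repressing other regulators together with Groucho-type corepressors. Nkx2-1 is needed for the ventral forebrain, thyroid and lung, Nkx2-5 for the heart, Nkx2-3 for the spleen and gut, and Nkx3-2 for the axial skeleton and spleen. Nkx2-6 is found in the pharyngeal pouches and the heart.

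The homeobox, the coding stretch for the homeodomain, holds 180 bases. It was read from a GENCODE M21 (GRCm38) transcript of each of the 9 genes that the deposited files also list. The stretch for its recognition helix, which lies in the major groove of DNA, is shown 5′ to 3′ on the coding strand for 1 gene with each of the 2 codons found at the position in capitals. They run from codon 42 to codon 58 of the homeobox, and capitals mark codon 54.
Nkx3-2: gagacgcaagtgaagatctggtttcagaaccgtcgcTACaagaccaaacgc
Nkx6-2: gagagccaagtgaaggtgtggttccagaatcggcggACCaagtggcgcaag

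Among the 9 genes, codon 54 separated the Nkx6 class from the others: it was TAC in 7 of the 9 genes, all of the Nkx2 and Nkx3 classes, and ACC in both Nkx6 genes. Nkx1-1 and Nkx1-2, which are not among the 9 genes, also had ACC there. The residue that codon 54 encodes is known as one of those that set the DNA sequence an NK-2 type homeodomain prefers. Over the whole homeobox, the 15 pairs among the 6 Nkx2 genes shared 73.3% to 86.1% of bases, led by Nkx2-3 with Nkx2-5. Nkx6-1 and Nkx6-2 shared 79.4%. Between Nkx2 and Nkx6 genes the share was only 51.1% to 55.6%, and Nkx3-2 stood nearer to the Nkx2 genes, at 66.7% to 72.8%. Nkx2-4, which is not among the 9 genes, was the nearest relative of Nkx2-1, with 90% of bases shared.

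**Figure D1:**
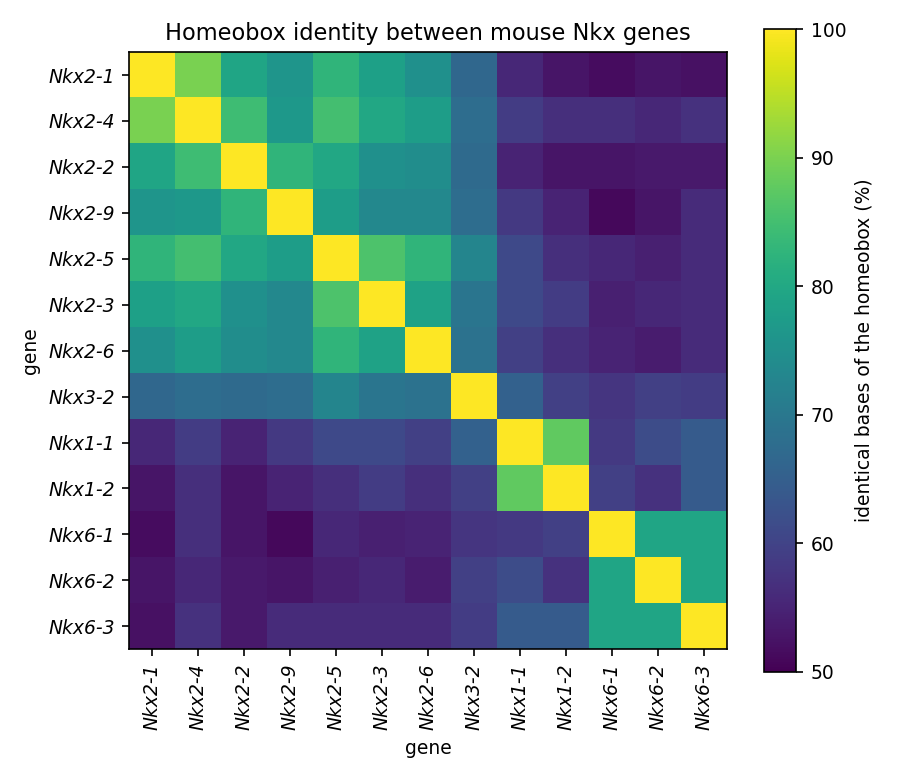
Percentage of identical bases over the 180 bases of the homeobox for each pair of mouse Nkx genes, with genes on both axes and the share as colour. The Nkx2 genes form a bright block (73.3% to 86.1% among those described) and the Nkx6 genes another, with 51.1% to 55.6% between these classes.

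Despite this likeness, few stretches of the transcripts were shared. Windows of 36 bases were compared with all other transcripts of the annotation on both strands, and none of those of Nkx2-5, Nkx2-6, Nkx3-2 and Nkx6-2 occurred in a gene outside the locus. For Nkx2-1, 57 of 2723 windows (2.09%) did, and 7 of these lay in another Nkx gene. For Nkx2-9 the number was 18 of 1213 (1.48%), again with 7 in an Nkx gene. Nkx2-2 shared 9 of 2484 windows, Nkx2-3 shared 1 of 2077 and Nkx6-1 shared 1 of 3103. Read length is not given in the sources used here, nor is the treatment of reads with several matches.

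All 9 genes had reads in both libraries, and all were low. The counts ran from 11 reads for Nkx2-9 to 132 for Nkx6-1 in replicate 1, and from 25 to 392 for the same genes in replicate 2. The libraries held 18318181 counted reads (replicate 1) and 117522171 (replicate 2). At 1 RPKM or more in both replicates, the minimum used for a detected locus, 6 of 9 genes passed (66.7%). Over all loci 49.4% passed and over protein-coding loci 65.1%, so the share of Nkx genes lay near that of protein-coding loci. The median level of the 9 genes was 1.41 and 1.18 RPKM, against 1.76 and 1.003 for all loci and 8.38 and 5.52 for protein-coding loci.

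The Nkx6 genes of the ventral neural tube were highest. Nkx6-1 (ENSMUSG00000035187), which marks the ventral progenitors that give rise to motor neurons and their neighbours, stood at 4.61 and 2.41 RPKM. Its paralogue Nkx6-2 (ENSMUSG00000041309) stood at 4.10 and 2.67 RPKM. Replicate 1 was the higher in both genes, and which of them led changed with the replicate.

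Nkx2-2 (ENSMUSG00000027434), which marks the most ventral progenitors next to the floor plate, followed with 2.76 and 1.38 RPKM. Its locus also holds the antisense gene Nkx2-2os, and the sources used here do not say whether counting used strand. Reads of Nkx2-2 and of its antisense partner therefore cannot be told apart. The related Nkx2-9 (ENSMUSG00000058669) was the lowest of the 9 genes, at 0.860 and 0.344 RPKM, and stayed under 1 RPKM in both libraries.

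The mesoderm and gut genes Nkx3-2, Nkx2-3 and Nkx2-5 sat close together in the middle of the order and passed the minimum. The vertebral and spleen regulator Nkx3-2 (ENSMUSG00000049691) stood at 1.41 and 1.18 RPKM. The spleen and gut gene Nkx2-3 (ENSMUSG00000044220) was at 1.29 RPKM in both libraries. The heart regulator Nkx2-5 (ENSMUSG00000015579) stood at 1.37 and 1.17 RPKM. In each of these the value of replicate 2 lay within the exact 95% counting interval of replicate 1, which was 0.9499 to 2.01 RPKM for Nkx3-2, 0.850 to 1.88 for Nkx2-3 and 0.862 to 2.08 for Nkx2-5.

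Nkx2-1 and Nkx2-6 reached 1 RPKM in replicate 1 only. Nkx2-1 (ENSMUSG00000001496), the forebrain, thyroid and lung regulator, stood at 1.47 and 0.482 RPKM. Nkx2-6 (ENSMUSG00000044186) stood at 1.15 and 0.390 RPKM, in a locus joined with the antisense gene 1700092C10Rik. Replicate 1 was the higher in both genes, and the counting intervals of the 2 libraries did not overlap in either. The same held for Nkx6-1, Nkx6-2 and Nkx2-2.

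**Figure D2:**
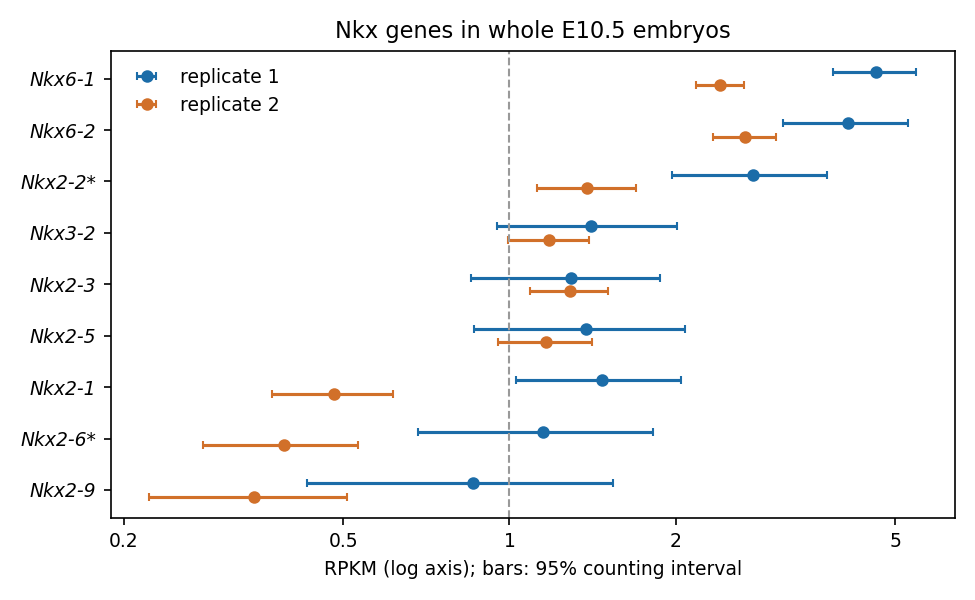
RPKM of the 9 Nkx genes (log axis) in replicate 1 and replicate 2, with exact 95% Poisson intervals as bars, which cover counting error only. An asterisk marks a locus joined with another gene and the dashed line 1 RPKM; Nkx6-1 and Nkx6-2 lie highest, and Nkx2-1, Nkx2-6 and Nkx2-9 fall under the line in replicate 2.

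The order of the genes was not resolved step by step. A difference between 2 genes was called beyond the replicate spread when it had the same sign in both replicates and its mean exceeded 2 SD of the log2 ratio between replicates of loci of that level. This is a description and no test: with 2 replicates no exact test can reach a p under the usual threshold. None of the 8 steps between neighbours in the order passed, and the widest was that of Nkx6-2 over Nkx2-2, 0.53 ± 0.13 on the log2(RPKM + 1) scale (SD, n = 2), against a limit of 1.21. Nkx6-1 and Nkx6-2 differed by 0.01 ± 0.17. The heart gene Nkx2-5 differed from Nkx2-3 by -0.01 ± 0.09 and from Nkx2-6 by 0.39 ± 0.35, with a limit of 1.02 for both. Nkx2-2 over Nkx2-9 came near its limit of 1.09, with 0.92 ± 0.13 and no overlap between the values of the 2 genes.

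The pathway that induces the ventral Nkx genes was present at much higher levels. In this and the other lists, highest and lowest refer to the mean RPKM of both replicates. All 13 loci of the hedgehog list passed 1 RPKM in both replicates, and their median was 18.7 and 11.9 RPKM. The effector Gli3 (69.3 and 44.5) and the receptor Ptch1 (54.1 and 40.02) were highest and the floor plate regulator Foxa2 was lowest (6.71 and 2.94). All 5 measured Groucho loci passed too, led by Tle1 (102 and 87.8, joined with another gene) and Tle3 (67.1 and 72.1), with Tle6 lowest (4.74 and 3.61).

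Among regulators of the neural progenitor domains 9 of 14 loci passed. Pax6, which marks a broad domain that Nkx2-2 borders and opposes, was highest at 53.7 and 29.4 RPKM, followed by dorsal Pax3 (39.4 and 25.8). Pax6 exceeded Nkx2-2 by 3.77 ± 0.14 on the log2(RPKM + 1) scale, which was beyond the spread. Nkx6-1 exceeded Dbx2, whose progenitor domain lies more dorsally, by 1.45 ± 0.02, also beyond it. Dbx2 itself stood at 1.03 and 0.259 RPKM.

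The motor neuron progenitor gene Olig2 stood at 1.81 and 0.976 RPKM, close to the ventral Nkx genes. Nkx6-1 over Olig2 (0.89 ± 0.15) and Nkx2-2 over Olig2 (0.35 ± 0.11) stayed within the spread. Olig1 was the lowest of the domain list (0.164 and 0.101). In the list of ventral neurons 13 of 18 loci passed, with Isl1 (30.8 and 16.9) and Evx1 (10.5 and 7.38, joined) highest and the serotonergic gene Fev lowest (0 and 0.0560, 2 reads). Sim1, which marks the neurons born from the Nkx2-2 domain, stood at 6.02 and 4.41 RPKM, and exceeded Nkx2-2 by 1.04 ± 0.20. This lay within the limit of 1.12, which replicate 2 alone passed and which the mean passed when reads were scaled with 1 length per locus in both libraries.

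Nkx2-2 and Nkx6-2 also act later, in the oligodendrocyte lineage. Of its 9 loci 6 passed. Pdgfra, which many mesenchymal cells also express, was far the highest (94.3 and 110.4), then Sox10 (10.1 and 7.44), a gene shared with neural crest.

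Nkx2-1 lay below its partner genes Pax8 and Shh, and not below the thyroid regulator Foxe1. Foxa1 of the thyroid and lung list, at 0.854 and 0.415 RPKM, was also lower than Nkx2-1 in both libraries. Pax8, a thyroid regulator also found in kidney and hindbrain, stood at 10.4 and 4.74 RPKM in a joined locus, above Nkx2-1 by 2.08 ± 0.18 on the log2 scale. Shh, in a joined locus at 19.7 and 10.5 RPKM, exceeded it by 3.01 ± 0.08. Both differences were beyond the replicate spread. Foxe1 was low at 0.386 and 0.4225 RPKM. Nkx2-1 over Foxe1 was 0.84 in replicate 1 and 0.06 in replicate 2, with a mean of 0.45 ± 0.55 within the limit of 0.56.

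The thyroid and lung list passed at 11 of 21 loci, led by Fgfr2 (344 and 308, joined with Ctbp2) and Bmp4 (23.1 and 20.7). The airway secretory gene Scgb1a1 was the lowest, with 0 reads in both libraries, which allows up to 0.164 CPM (reads scaled to the total count of the library) in replicate 1 and 0.0255 in replicate 2. In the ventral forebrain and hypothalamus list 10 of 17 loci passed. Dlx1 (32.6 and 24.1) and Six6 (14.5 and 12.998), both joined with another gene, were highest, and Hmx2 was lowest (0.205 and 0.0722).

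Nkx2-5 stood below every regulator in the early heart list. All 19 of those loci passed, with a median of 8.69 and 5.48 RPKM. Mef2a (64.4 and 46.3) and Mef2c (47.6 and 47.9) were highest, and Hopx was lowest by the mean, at 1.94 and 2.05 RPKM in a joined locus, though Irx4 (1.60) and Gata5 (1.65, joined) were lower in replicate 2. The zinc finger factor Gata4 stood at 6.44 and 5.12 RPKM, above Nkx2-5 by 1.57 ± 0.11 on the log2 scale. The T-box factor Tbx5, at 7.46 and 5.48 RPKM, exceeded it by 1.71 ± 0.18. Isl1, which is also abundant in motor neurons and sensory ganglia, exceeded it by 3.39 ± 0.49. The differences from Gata4, Tbx5 and Isl1 were beyond the replicate spread. The other regulators of this list, among them Hopx, Irx4 and Gata5, were not compared with Nkx2-5 by that rule.

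The heart muscle list, which holds contractile, calcium handling, natriuretic peptide and gap junction genes, some of them known targets of Nkx2-5, lay far higher. All 17 loci passed, with a median of 44.0 and 40.7 RPKM. Myl4 (97.8 and 284, joined) and Actc1 (95.96 and 96.5) were highest, and Ryr2 was lowest (4.59 and 2.52). In the pharyngeal list 10 of 16 loci passed, led by Hoxa3 in a joined locus (88.4 and 55.2) and Eya1 (21.7 and 14.4), both by mean RPKM. Dlx6 is listed at 0 RPKM in both libraries but has 83 and 315 reads, so its level is unknown. It was the 1 locus of the files with reads in both libraries and an RPKM of 0. Tbx1, the pharyngeal T-box gene, stood at 9.54 and 6.76 RPKM, above Nkx2-6 by 2.39 ± 0.13 on the log2 scale and beyond the spread.

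Nkx3-2 lay below the sclerotome regulators with which it acts. Pax1 stood at 7.94 and 4.21 RPKM in a joined locus, above Nkx3-2 by 1.57 ± 0.45 on the log2 scale. Sox9 stood at 31.0 and 12.3 RPKM, above it by 3.17 ± 0.80. Both lay beyond the replicate spread. Of the sclerotome and cartilage list 14 of 17 loci passed. The highest were the collagen gene Col2a1, at 48.0 and 52.9 RPKM, and Sox5, at 47.4 and 44.9 RPKM in a joined locus. The late cartilage gene Matn1 was lowest (0.0473 and 0.0333).

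In the gut mesenchyme and spleen list 10 of 12 loci passed, with Hand2, a regulator also of heart and limb, at 24.8 and 29.8 RPKM. The lowest was the spleen gene Tlx1, at 0.489 and 0.124 RPKM. Nkx2-3 exceeded Tlx1 by 0.82 ± 0.29 on the log2 scale, within the limit of 1.02.

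The pancreas, in which Nkx2-2 and Nkx6-1 have known roles, was hardly visible through its own regulators. Pdx1, needed for the pancreatic bud, was the lowest of its list (0 and 0.0339), and Nkx6-1 exceeded it by 2.10 ± 0.54 on the log2 scale, beyond the spread. Of 15 loci 8 passed. The highest, Neurod1 (38.97 and 31.7) and Onecut1 (38.9 and 24.0), lay in joined loci and are also neuronal genes.

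How low genes are treated decided some of these calls. With a pseudocount of 0.01 in place of 1, all 11 differences were larger and kept their direction, but the limit from the replicate spread rose above the difference for 7 of them. For Nkx2-1 against Shh the difference went from 3.01 to 4.07 and the limit from 1.02 to 4.66. For Nkx6-1 against Dbx2 the difference went from 1.45 to 2.66, under the same limit of 4.66. The differences from Gata4, Tbx5, Tbx1, Pax8 and Pax1 also fell within their limits, and those from Pax6, Isl1, Sox9 and Pdx1 stayed beyond them.

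**Figure D3:**
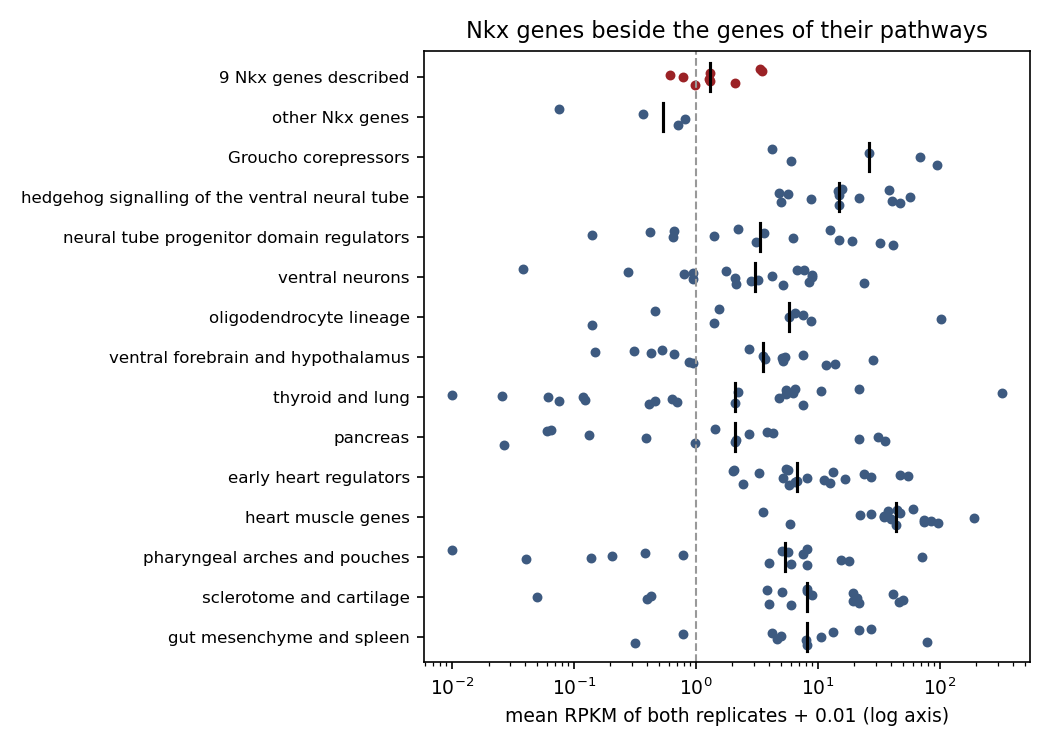
Mean RPKM of both replicates plus 0.01 (log axis) for each gene of the 9 Nkx genes, the other Nkx genes and the pathway lists, with 1 point per gene, a black bar at the median and a dashed line at 1 RPKM. The Nkx genes lie between 0.602 and 3.51 RPKM, under the medians of the hedgehog, early heart and heart muscle lists.

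**Figure D4:**
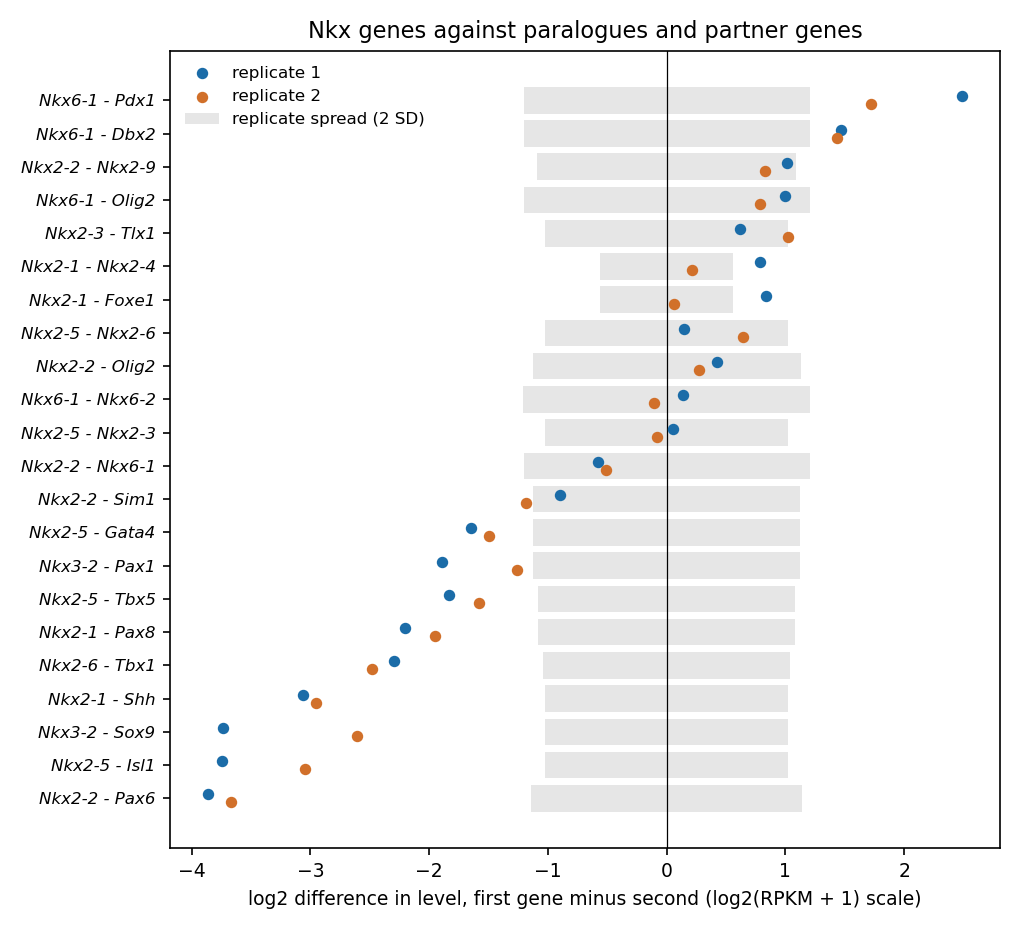
Log2 difference in level between an Nkx gene and a paralogue or partner gene (first gene minus second, log2(RPKM + 1) scale) in each replicate, with the replicate spread of 2 SD as a grey bar. Of 22 pairs, 11 had a mean beyond the bar, 2 of them with the Nkx gene higher (Nkx6-1 over Pdx1 and over Dbx2).

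Of the other Nkx genes, those given here did not reach the minimum in both replicates. Nkx2-4, the close relative of Nkx2-1, stood at 0.438 and 0.275 RPKM, Nkx1-2 at 1.205 and 0.412 in a joined locus and Nkx1-1 at 0.405 and 0.998. Nkx6-3 had 2 reads in replicate 1 and none in replicate 2. Several of these genes are neighbours on their chromosomes in the RefSeq GRCm38.p6 annotation: Nkx2-1 lies beside Nkx2-9, and Nkx2-2 between Nkx2-4 and Pax1. These 4 neighbouring Nkx genes, Nkx2-1, Nkx2-9, Nkx2-2 and Nkx2-4, all had the higher RPKM in replicate 1. So did the rest of the 9 genes, Nkx1-2, Nkx6-3 and 85.2% of loci within the 9 genes' range of mean RPKM. The direction therefore does not set the neighbours apart. Nkx1-1 had the higher RPKM in replicate 2, from 5 and 43 reads.

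The gene with the most similar level was sought among 176 genes of the pathway lists, by the distance between log2(RPKM + 1) values over the 2 libraries. For Nkx2-6 it was Nkx1-2 (distance 0.04), for Nkx6-1 Ryr2 (0.05), for Nkx2-9 Foxa1 (0.07), for Nkx2-1 Foxd3 (0.09, joined), for Nkx2-2 Mnx1 (0.09) and for Nkx6-2 Lhx4 (0.11). Cspg4 was nearest to Nkx3-2, Nkx2-5 and Nkx2-3 (0.21, 0.23 and 0.26). With 2 libraries such a distance describes a level and no pattern.

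All 9 genes were lower in replicate 2, as were 85.2% of the 5136 loci within their range of mean RPKM. The ratio of replicate 1 to replicate 2 was 3.06 for Nkx2-1, 2.95 for Nkx2-6, 2.50 for Nkx2-9, 1.99 for Nkx2-2, 1.91 for Nkx6-1 and 1.53 for Nkx6-2. It was 1.19 for Nkx3-2, 1.18 for Nkx2-5 and 1.003 for Nkx2-3. On the log2(RPKM + 1) scale, which understates changes of low genes, none of the 9 genes differed 2-fold, against 13.1% of loci of that range lower and 1.6% higher in replicate 2. With a pseudocount of 0.1 in place of 1, 3 genes were lower by 2-fold or more, beside 35.5% of those loci. The median log2 ratio was -0.47 over the 9 genes and -0.46 over those loci.

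**Figure D5:**
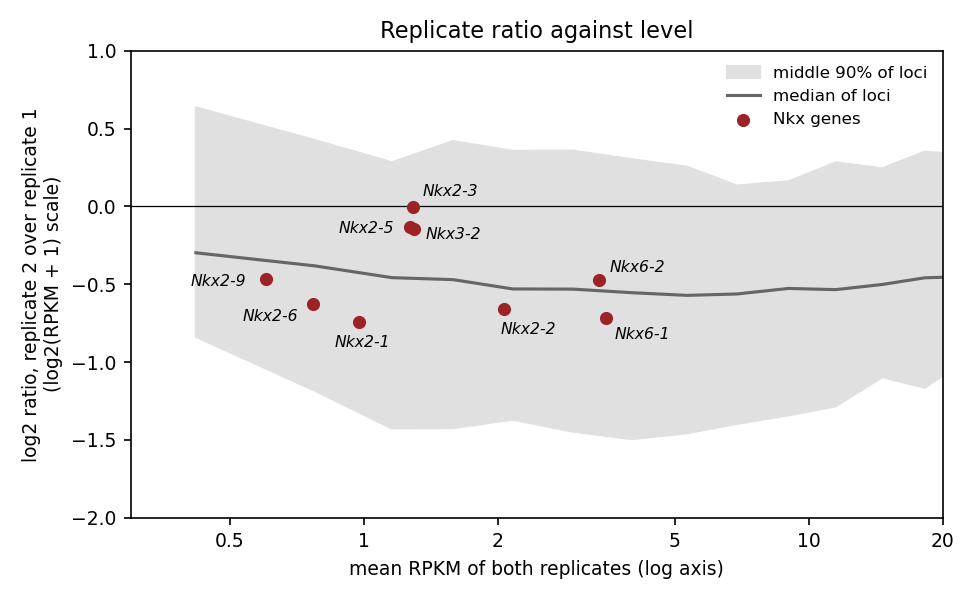
Log2 ratio of replicate 2 over replicate 1 (log2(RPKM + 1) scale) against mean RPKM (log axis), with the 9 Nkx genes as points and the median and middle 90% of all loci as line and band. All 9 points lie inside the band at or below 0; Nkx2-3, Nkx2-5, Nkx3-2 and Nkx6-2 lie above the median line.

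Reads alone were also compared between the libraries, scaled by the depth ratio of 5.68 that single-transcript loci imply. The median of this ratio, replicate 1 over replicate 2, was 1.91 over the 9 genes and 1.74 over loci within their range of mean RPKM. For Nkx6-1, Nkx6-2, Nkx2-2, Nkx2-1, Nkx2-6 and Nkx2-9 the exact 95% counting interval of the ratio lay above 1. For Nkx2-1 it was 3.06 (1.97 to 4.68) from 35 and 65 reads, and for Nkx2-9 it was 2.50 (1.11 to 5.27) from 11 and 25 reads. For Nkx2-3 (0.640 to 1.52), Nkx2-5 (0.709 to 1.88) and Nkx3-2 (0.776 to 1.78) it spanned 1. These overlapped with intervals above 1, such as that of Nkx6-2 (1.14 to 2.04), so the intervals do not part the genes into separate sets. So 6 of 9 genes had an interval above 1 and none below, where 51.4% of loci of that range had one above 1 and 1.32% below. These intervals leave out the variation between embryos.

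The median log2 ratio between the libraries differed among the pathway lists. Whether it did so by more than the levels of their loci imply was not tested. The hedgehog list was lower in replicate 2 at 13 of 13 loci, with a median log2 ratio of -0.63. The median was -0.36 over all loci of 1 RPKM or more in both replicates, a reference not matched for level. Over loci grouped by mean RPKM, it ran from -0.57 to -0.46 in the groups centred between 2.16 and 18.2 RPKM. In the group centred at 44.4 RPKM it was -0.32. Of loci within the Nkx genes' range of mean RPKM, 85.2% were lower in replicate 2, and no such share was taken at higher levels. The progenitor domain list was lower at 13 of 14 (-0.55), the ventral neuron list at 17 of 18 (-0.41) and the pharyngeal list at 15 of 16 (-0.48), with Dlx6 listed at 0 as the other. In the early heart list it was 16 of 19 (-0.47), while of the heart muscle loci 7 of 17 were lower, with a median of 0.05. Sclerotome and cartilage loci were lower at 16 of 17 (-0.29) and those of gut mesenchyme and spleen at 10 of 12 (-0.26).

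Markers listed for other tissues differed between the libraries as well. Whether the share of those tissues differed was not tested. The 3 markers of primitive red cells summed to 4067 RPKM in replicate 1 and 11612 in replicate 2. The 5 markers of yolk sac endoderm summed to 504 and 139 RPKM, all lower in replicate 2, with Cubn at 37.4 and 1.98 in a joined locus. Trophoblast markers passed at 2 of 6 loci (summed 8.98 and 5.49 RPKM), with Tpbpa and Psg21 at 0 in both libraries, and decidual markers at 3 of 4 (22.9 and 19.0 RPKM). The decidual markers did not move together: Prl8a2 was higher in replicate 2 (1.23 and 6.38). The other 3 were lower there, among them Cryab (18.4 and 10.9), which made up most of the sum. The part of these differences in the lower Nkx values of replicate 2 was not tested. Neural, heart and limb bud markers passed at all 12 entries. The 4 neural markers summed to 715 and 850 RPKM, the 4 heart markers to 233 and 248, and the 4 limb bud markers to 104 and 78.1.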

How the data were processed

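Total RNA of whole embryos was sequenced on an Illumina platform, per the labels' protocols. TopHat and the build mm9 are named, without a version, per the submitters' processing notes; the counter is not given in the sources used here, nor is the use of strand. The deposited files give RPKM, as the authors computed it, and raw read counts per locus, per the file headers. Their 34676 rows were summed to 34624 loci by identical gene identifiers, of which 2473 joined several genes. Symbols were matched by identifier (32642 of 37681). The 9 genes and all lists and pairs were chosen with earlier results of these data known.

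RPKM was the main unit (CPM, computed from the deposited counts, an alternative), with a pseudocount of 1 on the log2 scale and a minimum of 1 RPKM in both replicates. Spread was the SD of the log2 ratio in 20 level groups of loci of 1 RPKM or more and in 1 group of lower loci. Counts gave exact 95% Poisson and Clopper-Pearson intervals, for counting error only, and the limit of 3 reads for a count of 0. No count test was run, since there was 1 group. The labels do not say that the replicates came from separate animals, so their spread may be technical. The ratio of reads per RPKM between libraries was 5.68, to within 1 percent, at 100.0% of well-covered loci with 1 transcript (more than 200 reads) and at 23.2% of those with several.

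Genes named were the 9 genes, the other Nkx genes, the pair genes, the 2 highest and the lowest of each of 14 lists, genes at 0 and the nearest genes; a few of these are not reported here. Lhx8, Foxl1 and Tle5 had no matched locus and were not analysed here. Protein sequences were not used here; homeobox bases took their place. Alternatives covered minimum, pseudocount, filters, scaling, unit, length and each replicate left out. Code was tested on simulated data. Python 3.11.15, pandas 2.3.3 and scipy 1.17.1 were used.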

Additional observations from a re-analysis of the deposited data

How the results depend on the processing

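The number of genes passing the minimum was 6 of 9, where 49.4% of all loci and 65.1% of protein-coding loci passed. It fell to 2 at 2 RPKM and to 0 at 5 RPKM, and was 9 at 0.3 RPKM or at 10 reads in both libraries, 4 at 1 CPM and 6 to 8 with 1 library alone. The share of all loci at these other settings is not given here, so these changes cannot be set against it. The median level of 1.19 on the log2(RPKM + 1) scale was 0.38 and 0.47 with pseudocounts of 0.01 and 0.1, a change of scale by construction, 1.39 over the genes that passed, and 1.12 to 1.27 with 1 library alone. Genes differing 2-fold between replicates numbered 0, beside 13.1% of loci within their range of mean RPKM that were lower in replicate 2. They numbered 3 with pseudocounts of 0.01 or 0.1, all lower in replicate 2, beside 38.9% and 35.5% of those loci. With a pseudocount of 0.1 and 1 length per locus in both libraries they numbered 4, beside 34.7%. This last setting was chosen after seeing the data. Of 29 distinct pairs, 11 lay beyond the replicate spread, 4 with a pseudocount of 0.01, 17 with 1 SD as the limit, 8 with 3 SD and 13 with either library alone. The 4 were all among the 11, and with that pseudocount the limits rose above the differences for the other 7, although these differences grew. The calls of Nkx2-5 against Gata4 and of Nkx3-2 against Pax1 were lost with pseudocounts of 0.01 and 0.1 and with 3 SD. No pair changed direction past the limit. Over the 14 pathway lists 146 of 198 entries passed, and 133 to 171 did at minima of 2 and 0.3 RPKM. No paired analysis was possible because there is 1 group. At 11 to 40 reads in replicate 1 for 7 of the 9 genes, depth limits the precision of their values there.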

Other observations

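The length behind the authors' RPKM was not the same in both libraries for every Nkx gene. Reads per RPKM rose 5.68-fold from replicate 1 to replicate 2 for 7 of the 9 genes, but 4.73-fold for Nkx2-2 and 6.56-fold for Nkx2-6, both in joined loci with several transcripts. In reads alone, replicate 1 over replicate 2 was 2.39 for Nkx2-2 (against 1.99 in RPKM) and 2.56 for Nkx2-6 (against 2.95). Nkx1-1 was the only one of the Nkx genes named here with the higher RPKM in replicate 2, from 5 and 43 reads, with 3.49-fold more reads per RPKM there. Its ratio of replicate 1 to replicate 2 was 0.406 in RPKM and 0.661 in depth-scaled reads, with a counting interval of 0.204 to 1.66 that spans 1.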
